A study of Mus musculus with 15 samples.

Results

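The adenylate cyclase family comprises the enzymes that make cyclic AMP (cAMP) from ATP at the cell membrane, and its 9 genes are *Adcy1* to *Adcy9*. They were taken by gene symbol from a table of RNA levels in the mouse ventral striatum, which holds 24982 symbols, and all 9 were present and expressed highly enough to be tested. RNA was sequenced from 15 mice, of which 4 males and 4 females were WT and 3 males and 4 females were *Fmr1* KO. Each mouse gave 1 sample of the ventral striatum, pooled from its left and right side. All mice are labelled as C57BL/6J, were 2 to 3 months old and had completed behavioral tests before dissection.

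*Fmr1* KO mice lack FMRP, an RNA-binding protein that controls translation, and serve as a model of fragile X syndrome. The deletion is present in every cell. The line was kept by mating hemizygous *Fmr1* KO males with homozygous *Fmr1* KO females, and the WT mice came from the same strain rather than from the same litters, so genotype and breeding line cannot be told apart. A further KO male, numbered 2, had been excluded by the authors and was not analysed here. Levels are given as rlog, the regularized logarithm to base 2 that the authors computed from read counts with a correction for library size. It draws weakly expressed genes toward their mean and so makes the differences of those genes smaller. *Fmr1* itself was lower in every KO mouse, at 9.82 to 10.1, than in every WT mouse, at 10.6 to 10.9.

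The cyclases are the point at which receptors for dopamine, adenosine, opioids and glutamate meet in striatal neurons. Receptors coupled to Gs or its striatal relative Golf switch them on, receptors coupled to Gi switch many of them off, and cAMP then activates protein kinase A. The isoforms differ in what else they respond to. *Adcy1*, *Adcy3* and *Adcy8* encode isoforms stimulated by calcium and calmodulin, *Adcy5* and *Adcy6* encode isoforms inhibited by calcium, *Adcy2*, *Adcy4* and *Adcy7* encode isoforms that G protein beta-gamma subunits stimulate further, and *Adcy9* encodes an isoform that hardly responds to the plant compound forskolin. *Adcy5* is known as the main cyclase of the striatum.

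Since the family members descend from the same ancestral gene, their sequences bear on how surely a read can be assigned to 1 of them. The same stretch of 60 coding bases, from the second catalytic domain, is shown for the 4 genes on which the comparison of genotypes turns. It was placed around the longest run of bases that *Adcy5* and *Adcy6* share, so it favors the likeness of that pair. For each gene other than *Adcy5* the best match without gaps is shown. Capitals mark bases that differ from *Adcy5*. The sequences were read from GENCODE transcripts on the GRCm38 genome, 5′ to 3′ on the coding strand, and each of the 4 stretches is interrupted by an intron in the genome.
*Adcy5*, chr16:35298560-35299461, + strand: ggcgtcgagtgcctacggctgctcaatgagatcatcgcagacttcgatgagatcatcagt
*Adcy6*, chr15:98593657-98594381, − strand: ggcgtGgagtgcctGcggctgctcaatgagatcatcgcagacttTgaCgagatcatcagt
*Adcy7*, chr8:88325463-88326104, + strand: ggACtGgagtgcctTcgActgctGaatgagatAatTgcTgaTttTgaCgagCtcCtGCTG
*Adcy8*, chr15:64704235-64704708, − strand: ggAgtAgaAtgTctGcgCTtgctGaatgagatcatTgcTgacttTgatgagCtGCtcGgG

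In this stretch *Adcy6* differed from *Adcy5* at 4 bases, *Adcy7* at 18 and *Adcy8* at 16. Over the whole coding sequences the 36 pairs of members were 61.2% to 74.4% identical, and the pair with the highest identity was *Adcy5* and *Adcy6*. The longest run of identical bases in any pair was 33, shorter than the 150-base reads. The genes lie on different chromosomes except for *Adcy6* and *Adcy8*, both on chromosome 15, and *Adcy5* and *Adcy9*, both on chromosome 16. Exons of a gene on the opposite strand overlap exons of *Adcy3* (*Cenpo*, 1380 bases), *Adcy6* (*Gm29331*, 605 bases) and *Adcy2* (*Gm35161*, 189 bases). Other annotated genes overlap only introns of *Adcy2*, *Adcy5*, *Adcy8* and *Adcy9*, among them *Gm49702* on the same strand as *Adcy5*. The library kit kept the strand, but whether the counting used it is not given in the sources used here.

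The family was dominated by *Adcy5*. Levels of different genes were compared per length, as rlog minus log2 of the exonic length in kb, and *Adcy5* stood at 11.40 ± 0.22 (SD, n = 8 WT mice), above 99.0% of the genes with a known length. Per kb of exon this was 4.54-fold above the next member, *Adcy1*. That fold depends on the length used, since the exonic length is 12.5 kb for *Adcy1* and 7.18 kb for *Adcy5*. Their coding lengths are 3.35 and 3.79 kb, so the lead of *Adcy5* is smaller per kb of coding sequence. *Adcy1*, the neuronal cyclase best known from cortex and hippocampus, reached 9.22 ± 0.17 per kb, and *Adcy2* 9.21 ± 0.15. These levels of *Adcy1* and *Adcy2* did not differ beyond their spread, with *Adcy1* higher in 5 of 8 WT mice (2-sided exact sign-flip permutation test, p = 0.922).

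Below them came *Adcy9* at 8.68 per kb, *Adcy3* at 7.86, *Adcy6* at 7.01, *Adcy8* at 5.59, *Adcy7* at 5.11 and *Adcy4* at 4.18. *Adcy3* is the cyclase of olfactory and neuronal cilia. *Adcy7* is known from immune cells, and *Adcy4* is expressed in blood vessels among other tissues. Of the 8 pairs of neighbours in this order, 7 differed in the same direction in 8 of 8 WT mice (exact sign-flip permutation p = 0.00781, the smallest that 8 mice allow, adjusted p over the 8 pairs 0.00893). The ranges of *Adcy8* and *Adcy7* overlapped between mice, although *Adcy8* was the higher within each mouse, by 0.48 ± 0.11 on the log2 scale (SD, n = 8). Per kb of coding sequence, the order was the same, and all 8 pairs differed.

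**Figure D1:**
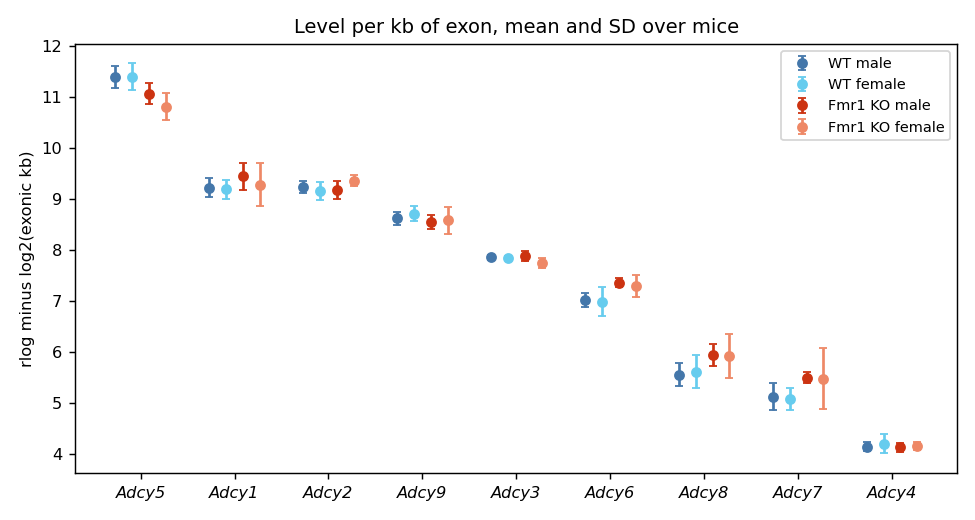
Level of each adenylate cyclase gene per kb of exon (rlog minus log2 of the exonic length in kb) in the 4 groups, as the mean (point) and SD (bar) over 3 or 4 mice. *Adcy5* stands at the top in every group, with WT mice at 11.40 on average, and *Adcy4* at the bottom with 4.18.

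As a share of the summed linear level per kb of the 9 genes, *Adcy5* made up 56.7% ± 4.03 in WT mice (SD, n = 8) and 47.0% ± 4.00 in *Fmr1* KO mice (SD, n = 7). Grouped by regulation, the calcium-inhibited isoforms held 59.3% in WT males, 59.6% in WT females, 53.4% in KO males and 49.1% in KO females. The isoforms stimulated by calcium and calmodulin held 18.5%, 18.3%, 23.1% and 23.0% in the same order. In males, the ranges of both classes were apart between the genotypes, and in females they overlapped. For rlog levels of single genes, a measure unlike a class share, 6.59% had all KO males above all WT males. The share of genes in the opposite direction, that of the calcium-inhibited class, is not given here. Shares have a fixed sum, so a lower share of *Adcy5* raises the shares of the other classes, and these are not separate differences. In males *Adcy1*, *Adcy3* and *Adcy8* themselves differed by 0.22, 0.03 and 0.38 (limma adjusted p = 0.431, 0.823 and 0.219). The beta-gamma-stimulated class held 13.9% in WT males, 13.3% in WT females, 14.8% in KO males and 18.2% in KO females, nearly all of it *Adcy2*. *Adcy9* held 8.27% to 9.66%. The shares are built from the same levels as the comparisons that follow, and the difference in shares was not tested. They use the exonic length and, like the fold of *Adcy5* over *Adcy1*, depend on the length used.

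**Figure D2:**
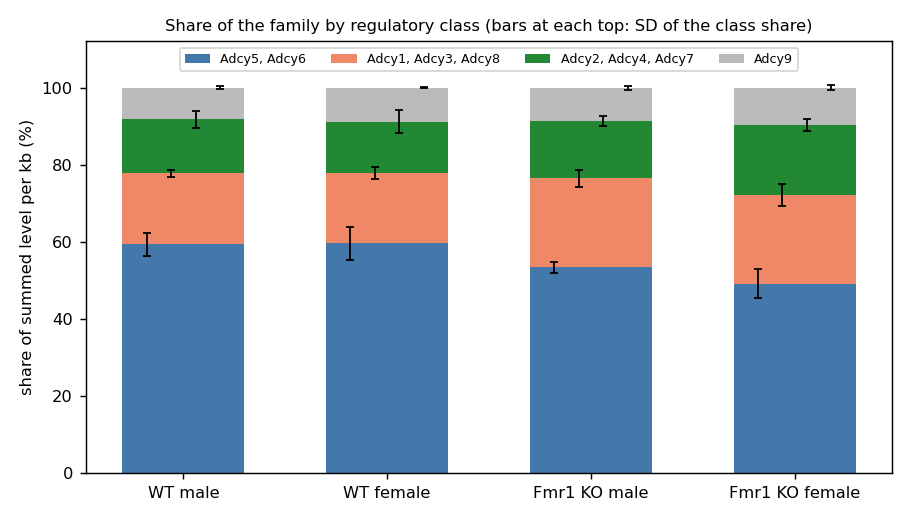
Share of the summed linear level per kb (percent) held by each regulatory class in the 4 groups. Stacked blocks are means over 3 or 4 mice, and the bar at the top of each block is the SD of that class. The block of *Adcy5* and *Adcy6* is 59.3% and 59.6% in WT males and females and 53.4% and 49.1% in KO males and females.

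The study asked how gene expression in the ventral striatum differs between *Fmr1* KO and WT mice, in males and females together and in each sex. None of the 9 members passed the threshold of an adjusted p of 0.05 over both sexes (limma, Benjamini-Hochberg over 15261 genes), a threshold that 1.28% of all genes tested passed. At an unadjusted p under 0.05 were 4 members, against 23.4% of all genes tested. *Adcy5* was lower in KO mice, as were 11.8% of all genes at that threshold, and *Adcy6*, *Adcy7* and *Adcy8* were higher, as were 11.6%. No member had all KO mice on one side of all WT mice over both sexes, a pattern that 0.367% of all genes had. The exact permutation test had a p under 0.05 for 2 of them, *Adcy5* and *Adcy6*, against 22.2% of all genes. The median difference of the 9 members was 0.08 on the log2 scale, beside 0.002 over all genes. The paper, with DESeq2 on counts, lists *Adcy5* among the genes downregulated in KO mice at a false discovery rate under 0.05. Over both sexes and in each sex it also called more genes than limma on rlog values did here.

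*Adcy5* encodes the cyclase that dopamine and adenosine receptors drive in the projection neurons of the striatum. Its rlog level was 14.36, 14.28, 13.93 and 14.42 in the WT males and 13.86, 14.42, 14.35 and 14.36 in the WT females. It was 13.75, 13.86 and 14.16 in the KO males and 13.70, 13.82, 13.27 and 13.84 in the KO females. KO female 3 was the lowest of all mice, and 5 of 7 KO mice lay below all WT mice. WT male 3 and WT female 1 lay at the level of the KO mice, and the groups overlapped through them. In females alone, all 4 KO mice were below all 4 WT mice, as was the case in that direction for 3.89% of all genes.

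The difference of *Adcy5* between KO and WT mice was -0.47 ± 0.12 on the log2 scale (SE, unadjusted p = 0.00107, limma adjusted p = 0.0534). Exchanging genotypes within each sex gave a 2-sided exact permutation p of 0.00490. In males the difference was -0.32 ± 0.14 (limma adjusted p = 0.280) and in females -0.59 ± 0.16 (limma adjusted p = 0.238). The side of the threshold depended on single mice. The adjusted p of *Adcy5* was 0.0214 without WT male 3, 0.0179 without WT female 1, 0.0428 without KO female 2 and 0.0446 without KO female 4. It was also 0.0331 with the replicate number as a block and 0.0496 with no term for sex.

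*Adcy6*, the closest relative of *Adcy5* and likewise inhibited by calcium, lay on the other side. Its level was 9.73, 9.74, 9.996 and 9.70 in the WT males and 10.12, 9.53, 9.52 and 9.86 in the WT females. It was 10.23, 10.08 and 10.08 in the KO males and 10.19, 9.91, 10.29 and 9.85 in the KO females. The 3 KO males lay above the 4 WT males, a pattern in that direction of 6.59% of all genes in males, and the females overlapped. WT male 3 and WT female 1 were again the WT mice nearest to the KO mice.

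*Adcy6* differed by 0.32 ± 0.09 (SE, unadjusted p = 0.00349, limma adjusted p = 0.0721, 2-sided exact permutation p = 0.0102). The difference was 0.34 in males (limma adjusted p = 0.130) and 0.30 in females (limma adjusted p = 0.390). Without WT male 3 the adjusted p was 0.0415 over both sexes and 0.0309 in males. Without WT female 1, KO female 2 or KO female 4 it was 0.0172, 0.0485 and 0.0489 over both sexes.

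**Figure D3:**
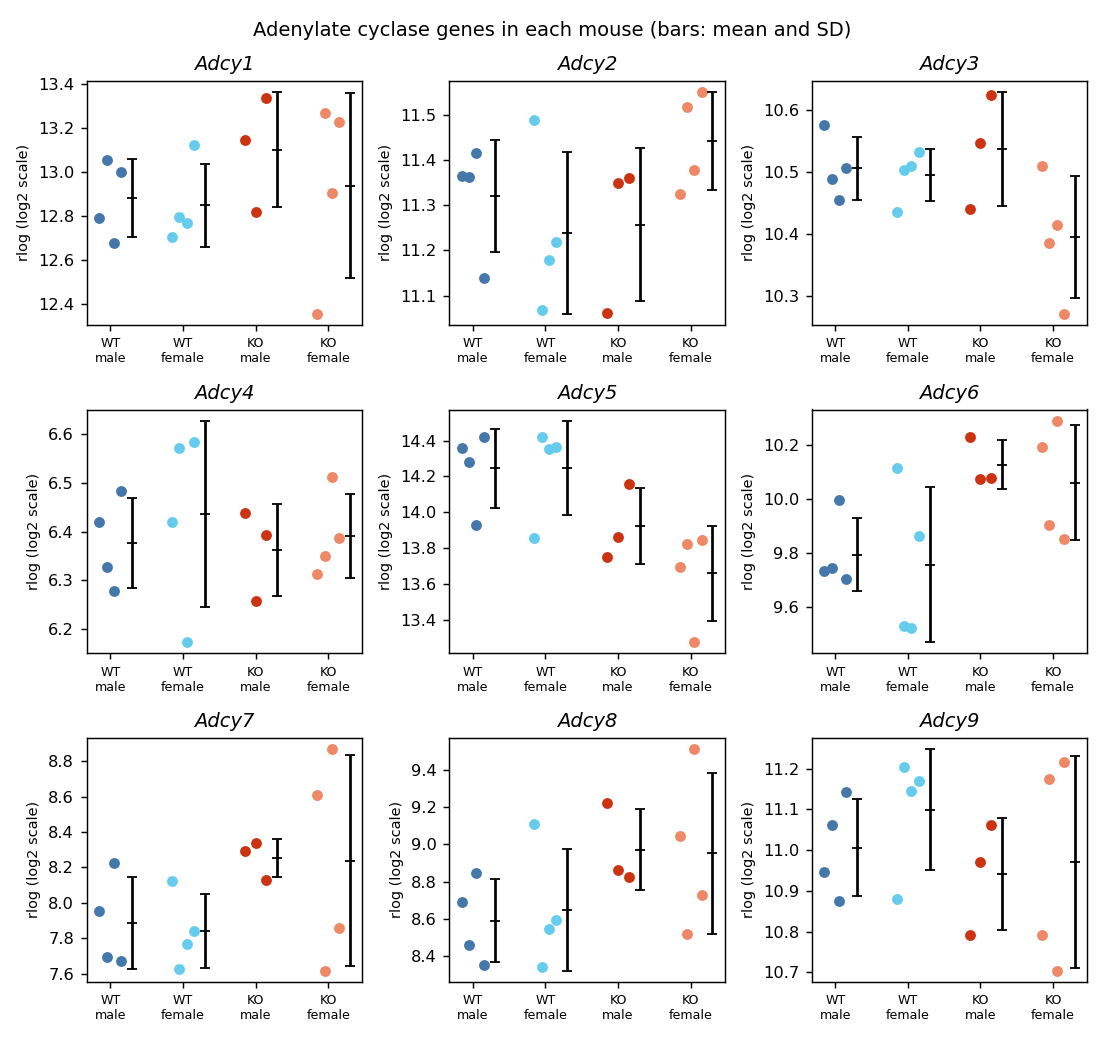
rlog level (log2 scale) of each adenylate cyclase gene in every mouse, by group, with the mean and SD of the group beside the points; the axis of each panel is its own. For *Adcy5* the 4 KO females, at 13.27 to 13.84, lie below the 4 WT females, and for *Adcy6* the 3 KO males, at 10.08 to 10.23, lie above the 4 WT males.

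*Adcy7* and *Adcy8* are minor isoforms in this tissue. *Adcy7* was at 7.95, 7.70, 8.23 and 7.67 in the WT males, 8.12, 7.63, 7.77 and 7.84 in the WT females, 8.29, 8.34 and 8.13 in the KO males and 8.61, 7.62, 8.87 and 7.86 in the KO females. *Adcy8*, one of the calcium-stimulated cyclases of neurons, was at 8.69, 8.46, 8.85 and 8.36 in the WT males, 9.11, 8.35, 8.55 and 8.59 in the WT females, 9.22, 8.87 and 8.83 in the KO males and 9.05, 8.52, 9.51 and 8.73 in the KO females. KO female 3 was the highest mouse for both genes, and the genotypes overlapped in each sex.

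The difference was 0.38 ± 0.16 for *Adcy7* (SE, unadjusted p = 0.0300, limma adjusted p = 0.165, 2-sided exact permutation p = 0.0551). For *Adcy8* it was 0.34 ± 0.14 (SE, unadjusted p = 0.0308, limma adjusted p = 0.167, 2-sided exact permutation p = 0.0563). Neither passed the threshold in males or in females. When each KO male was set against the WT male of the same number, all 3 pairs were lower for *Adcy5* (-0.61, -0.06 and -0.26) and all 3 were higher for *Adcy6* (0.50, 0.08 and 0.38), *Adcy7* (0.34, 0.11 and 0.46), *Adcy8* (0.53, 0.02 and 0.47) and *Adcy1* (0.36, 0.14 and 0.34). Of all genes, 38.5% had all 3 pairs in 1 direction, and with these pairs as a block 0 of 9 members passed in males.

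The other 5 members differed by less than 0.16 over both sexes, with limma adjusted p from 0.490 to 0.796. *Adcy1* ranged from 12.68 to 13.12 in WT mice and from 12.36 to 13.34 in KO mice, and its KO females had both the lowest mouse and values above every WT female. *Adcy9* ranged from 10.87 to 11.20 in WT and from 10.70 to 11.21 in KO mice. *Adcy3* stayed within 10.27 to 10.62 and *Adcy4* within 6.17 to 6.58 in all 15 mice. *Adcy3* was also the only member whose spread within groups, an SD of 0.07, lay under the median of all genes, 0.09. The spread of *Adcy7*, 0.36, exceeded that of 98.2% of genes.

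In males alone, 0 of 9 members passed the adjusted threshold (limma, beside 0.00655% of all genes), 4 had an unadjusted p under 0.05 against 17.2% of all genes, and 0 had an exact permutation p under 0.05 against 7.9% of all genes. In females alone, 0 of 9 passed (beside 0.0131% of all genes), 1 had an unadjusted p under 0.05 against 14.5% of all genes, and 1, *Adcy5*, had an exact permutation p of 0.0286, the smallest that 4 against 4 mice allow and one that 7.48% of all genes reached. A difference of the genotype effect between the sexes was tested as an interaction. It passed for 0 of 9 members, as for 0% of all genes, and no member had an unadjusted p under 0.05 against 5.98% of all genes. *Adcy2* came nearest, with a difference of -0.06 ± 0.09 in males and 0.20 ± 0.09 in females (SE, limma adjusted p of the interaction 0.791).

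WT females and WT males had similar levels of every member. The differences ranged from -0.08 for *Adcy2* to 0.09 for *Adcy9*, and 0 of 9 passed (limma), beside 2.82% of all genes tested. No member had an unadjusted p under 0.05 in this comparison, against 15% of all genes.

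**Figure D4:**
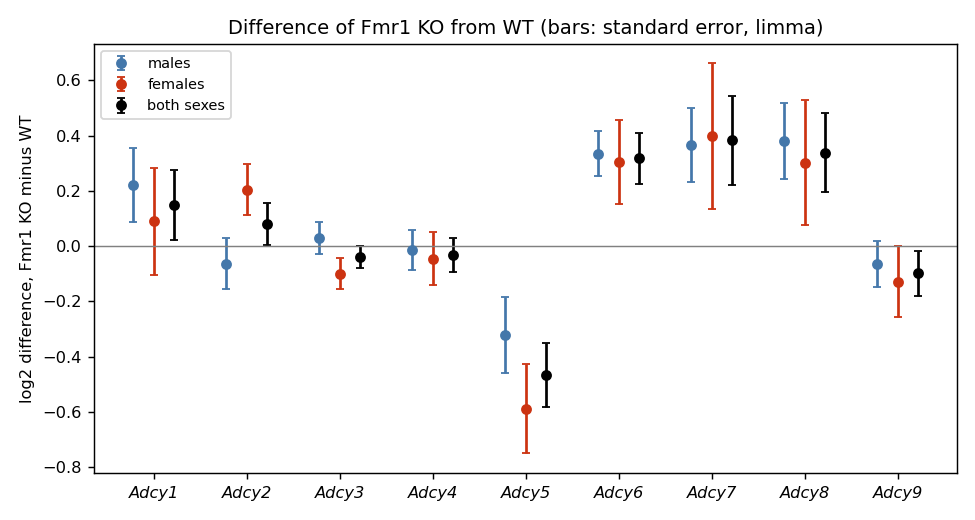
Difference of *Fmr1* KO from WT mice in rlog (log2 scale) for each member, in males, in females and over both sexes, with bars for the standard error from limma. *Adcy5* lies at -0.47 over both sexes and *Adcy6*, *Adcy7* and *Adcy8* at 0.32 to 0.38, and none passed the adjusted threshold.

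Listed cell type markers were compared in the same way, with the lists chosen while earlier results of these data were known. Of 20 listed markers of striatal projection neurons, 20 were on the lower side in KO mice, with a median difference of -0.49. Past the threshold were 2 of them, beside 0.793% of all genes in that direction. At an unadjusted p under 0.05 were 20, beside 11.8%. The summed linear level of these markers ranged from 188710 to 245335 in WT males, 158514 to 257770 in WT females, 143112 to 207749 in KO males and 106317 to 187740 in KO females. Of 12 markers of thalamus, hypothalamus and septum, regions near the dissected tissue, 12 lay on the higher side, with a median difference of 0.52. Of these, 0 passed the threshold and 2 had an unadjusted p under 0.05, against 11.6% of all genes in that direction. In males 6 were higher at that p, with a median of 0.75, and in females 0, with a median of 0.27. The summed level of these markers was 7946 to 15287 in WT males, 8478 to 15238 in WT females, 12292 to 23262 in KO males and 6981 to 20282 in KO females. The choroid plexus lies in the ventricle beside the striatum. In males 8 of its 9 markers lay on the higher side in KO mice, 7 of them at an unadjusted p under 0.05, with a median of 0.28 and summed levels that did not overlap (948 to 1481 in WT and 2116 to 2454 in KO males). Of 15261 genes, 1335 were higher at that p in males, and 6.59% had all KO males above all WT males. *Ttr* had the largest difference, 1.85. *Folr1*, *Slc4a5*, *Kcne2* and *Aqp1* were near the minimum for testing, with mean rlog of 3.71, 3.16, 2.99 and 3.43 in WT males. In females 4 were higher and 5 lower, with a median of -0.008 and summed levels that overlapped (963 to 1745 in WT and 785 to 1628 in KO females). The other 6 lists are given over both sexes, with 0 genes past the threshold in each. On the lower side lay 11 of 11 microglial markers (median -0.15), 11 of 12 of endothelial and mural cells (-0.04) and 3 of 3 of cholinergic interneurons (-0.08). On the higher side lay 10 of 10 oligodendrocyte markers (median 0.06), 8 of 10 of cortical excitatory neurons (0.15) and 7 of 10 of astrocytes (0.03). Several of these directions differed by sex. In males 8 of 11 microglial, 3 of 12 endothelial and mural and 1 of 3 cholinergic markers were lower. In females 10 of 11, 12 of 12 and 3 of 3 were lower. In males 9 of 10 oligodendrocyte, 3 of 10 cortical and 8 of 10 astrocyte markers were higher. In females 5, 9 and 5 of 10 were higher. No marker of the 9 lists was at 0 in every mouse. In such bulk samples, fewer cells of a type and less RNA per cell cannot be told apart, and the part of dissection or cell makeup in the differences of the cyclases was not tested directly.

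A projection neuron score was formed for each mouse as the mean of the marker rlog values, each taken relative to that gene's mean, and no member of the family is among the markers. *Adcy5* correlated with this score over the 15 mice with Pearson's r = 0.976 and Spearman's rho = 0.943 (permutation p = 1e-05 for each, the smallest that 100000 draws give). Without the mice farthest from the median of the score, KO female 3 and WT female 2, r was 0.957, and with each group centred on its mean r was 0.968.

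*Adcy9* ran in the same direction, with r = 0.786 (permutation p = 0.00054) and rho = 0.671 (permutation p = 0.00793), and with r = 0.914 within groups. *Adcy6*, *Adcy7* and *Adcy8* ran in the opposite direction. *Adcy6* had r = -0.898 and rho = -0.914 (permutation p = 2e-05 and 1e-05), and r = -0.875 within groups. *Adcy7* had r = -0.865 and rho = -0.757 (permutation p = 7e-05 and 0.00167), and r = -0.843 within groups. *Adcy8* had r = -0.924 and rho = -0.882 (permutation p = 2e-05 and 3e-05), and r = -0.941 within groups. Without the same pair of mice r was -0.899 for *Adcy6*, -0.750 for *Adcy7*, -0.860 for *Adcy8* and 0.665 for *Adcy9*. The correlations of *Adcy1*, *Adcy2*, *Adcy3* and *Adcy4* over all mice lay between -0.32 and 0.38 and had a permutation p of 0.13 or more. Adjusted over the 9 correlations, the Pearson p was 6e-05 for *Adcy5* and 0.000972 for *Adcy9*, the highest of the 5. The share of all genes with such correlations is not given here. The 5 members are therefore not shown to stand apart from other genes in this respect.

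The same correlations were computed in each genotype alone, 18 in all. *Adcy5* had r = 0.968 and rho = 0.857 in the 8 WT mice (exact permutation p = 0.00114 and 0.0107) and r = 0.947 and rho = 0.821 in the 7 KO mice (exact permutation p = 0.00238 and 0.0341). Without WT female 1 and WT male 3, the WT mice farthest from the median score, r in WT mice was 0.653. *Adcy6* to *Adcy9* kept their direction in both genotypes. Without the same 2 WT mice, r in WT mice went from -0.829 to -0.493 for *Adcy7* and from -0.918 to -0.479 for *Adcy8*. It was then -0.760 for *Adcy6* and 0.777 for *Adcy9*. *Adcy2* had opposite signs in the genotypes, with r = -0.815 and rho = -0.952 in WT mice (exact permutation p = 0.000818 and 0.00114, Pearson p adjusted over 18 of 0.00671) and r = 0.340 and rho = 0.429 in KO mice (exact permutation p = 0.413 and 0.354). Without the farthest pair of each genotype, r of *Adcy2* was -0.916 and 0.878. *Adcy3* had r = 0.751 and rho = 0.548 in WT mice (exact permutation p = 0.0329 and 0.171), which became r = -0.351 without the same pair and so rests on it, and r = 0.139 in KO mice. The differences between the genotypes in these correlations were not tested.

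**Figure D5:**
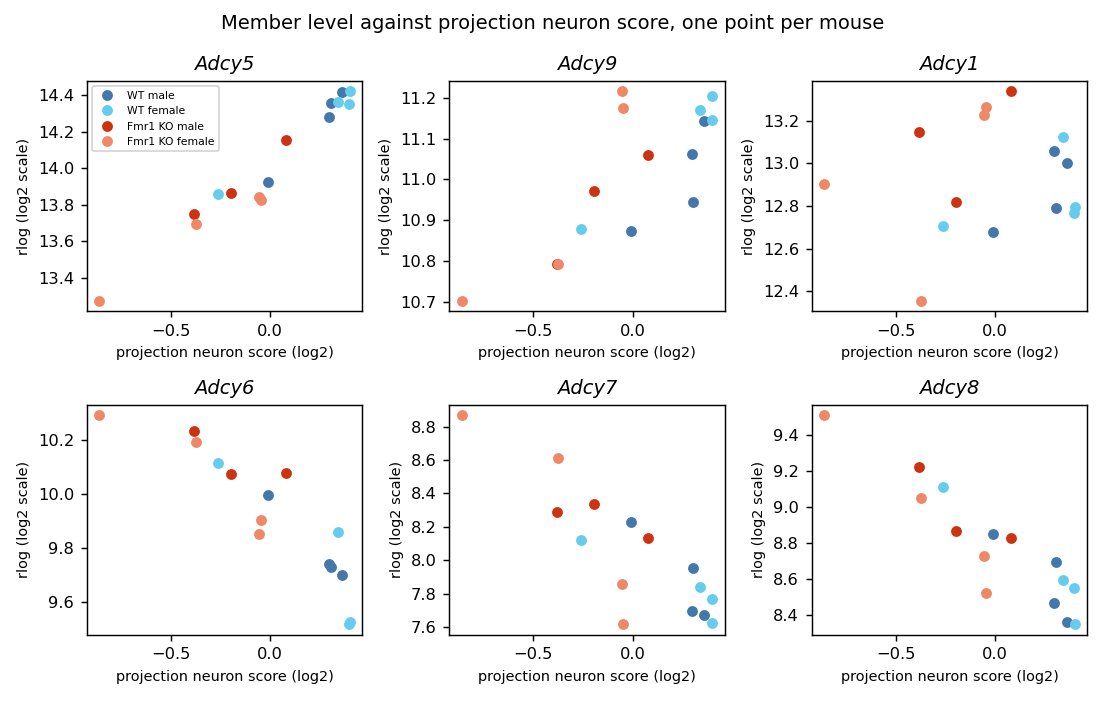
rlog level (log2 scale) of 6 members against the projection neuron score (mean log2 deviation of 20 markers), with 1 point per mouse colored by group. *Adcy5* (r = 0.976) and *Adcy9* (r = 0.786) rise with the score, *Adcy6*, *Adcy7* and *Adcy8* fall with it (r from -0.924 to -0.865), and *Adcy1* does neither (r = 0.15).

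The WT mice with low scores were WT female 1, at -0.26, and WT male 3, at -0.01, where the other 6 WT mice had scores of 0.30 to 0.40. These are the mice that had the lowest WT levels of *Adcy5*. With the score as a covariate, the genotype difference over both sexes was -0.07 for *Adcy5*, 0.03 for *Adcy6*, -0.11 for *Adcy7* and -0.14 for *Adcy8*, each with a limma adjusted p of 1.00. The score itself differs between the genotypes, so this fit removes any genotype difference that the markers share.

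The genes most like each member in their level over the 15 mice give the same contrast as a description. Nearest to *Adcy5* were *Bcr* (r = 0.988), *Gng7* (r = 0.985), *Ppp1r1b* (r = 0.983), *Lingo3* (r = 0.982) and *Pde1b* (r = 0.979). *Gng7* encodes the G protein gamma subunit of the striatal Golf complex, *Ppp1r1b* encodes DARPP-32, a protein kinase A target of projection neurons, and *Pde1b* encodes a calcium-dependent phosphodiesterase. *Gng7*, *Ppp1r1b* and *Pde1b* are also on the list of projection neuron markers.

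Nearest to *Adcy6* were *Ckap4*, *Sez6l*, *Dscam*, *Fam155a* and *Slc17a6*, with r from 0.946 to 0.956. *Slc17a6*, the vesicular glutamate transporter of thalamic and other subcortical neurons, is on the list of neighboring-region markers. Nearest to *Adcy7* were *Arl10*, *Mab21l2*, *Rmst*, *Mrgpre* and *Zan* (r = 0.965 to 0.976). Nearest to *Adcy8* were *Npas3*, *Nrbp1*, *Nhlh2*, *Chrnb2*, a nicotinic receptor subunit, and *Tmem132c* (r = 0.945 to 0.962).

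For *Adcy9* the nearest genes were *Jph1*, *Phf24*, *Klf9*, *Zfp385b* and *Inip* (r = 0.935 to 0.954). For *Adcy1* they were *Myo5c*, *Slc24a2*, *Prickle1*, *Atrnl1* and *Ly6a* (r = 0.846 to 0.914), and for *Adcy2* *Lrrc55*, *Npy1r*, *Tmem132d*, *Plcxd2* and *Epha5* (r = 0.848 to 0.936). *Adcy3* was most like *Mfn2*, *Fam219a*, *Adck2*, *Atp5l* and *Nlgn2* (r = 0.851 to 0.890). *Adcy4* was most like *Ehd2*, *Capn3*, *Map3k7cl*, *Arap3* and *Slfn3*, with the lowest values of any member (r = 0.784 to 0.849). These r values were picked as the highest among all genes tested over mice that share genotype and tissue makeup, and carry no test.

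Around the cyclases, 91 of 92 listed genes of the cAMP pathway were tested. Over both sexes 1 was lower and 1 higher past the threshold, beside 0.793% and 0.491% of all genes. At an unadjusted p under 0.05, 34 were on the lower and 9 on the higher side, where all genes had 11.8% and 11.6%. The counts of the single roles at that p stand beside the same shares. The median difference was -0.06, beside 0.002 over all genes. Among the genes lower at that p, *Adora2a*, *Drd1*, *Drd2*, *Gpr6*, *Gng7*, *Rgs9*, *Pde1b*, *Pde10a* and *Ppp1r1b* are also projection neuron markers. The pathway counts thus partly repeat the marker list. Of the 14 Gi-coupled receptors, 7 were on the lower and 2 on the higher side at an unadjusted p under 0.05, and the median of all 14 was -0.23. Among them, *Adra2c*, an alpha-2 adrenergic receptor of striatal neurons, fell by 0.58 (limma adjusted p = 0.0145), and *Grm2*, a presynaptic glutamate receptor, rose by 0.59 (limma adjusted p = 0.0403). Leaving out 1 mouse ended the call of *Adra2c* only for WT female 3 (adjusted p = 0.0551). The call of *Grm2* ended without any 1 of WT males 1, 2 and 4, WT females 2, 3 and 4, KO males 1, 3 and 4 and KO female 3 (adjusted p = 0.0503 to 0.0942), and both calls ended once the score of projection neurons entered as a covariate, at differences of -0.29 and 0.39. *Gabbr2*, a GABA-B receptor subunit, differed by 0.32 (limma adjusted p = 0.0526).

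Of the 9 Gs-coupled receptors 0 passed (limma) and 4 were lower at an unadjusted p under 0.05. The adenosine receptor *Adora2a* differed by -0.56, the dopamine receptor *Drd1* by -0.53 and the orphan receptor *Gpr6* by -0.44 (limma adjusted p = 0.0694 to 0.0774). All of these are also projection neuron markers. Of the 14 G protein subunits 0 passed, with 3 on the lower and 3 on the higher side at an unadjusted p under 0.05. *Gng2* differed by 0.54, *Gnb5* by -0.30 and *Gng7* by -0.52 (limma adjusted p = 0.0502 to 0.0534).

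Of the 10 cyclase regulators and partners 0 passed and 8 were lower at an unadjusted p under 0.05, against 11.8% of all genes. They include the cyclase-associated proteins *Cap1* at -0.29 and *Cap2* at -0.24, and *Akap5*, an anchoring protein for protein kinase A, at -0.50 (limma adjusted p = 0.0526 to 0.0822). Of the 16 phosphodiesterases, which break cAMP down, 0 passed, with 7 on the lower side and 1 on the higher at an unadjusted p under 0.05. *Pde1b* differed by -0.45, *Pde2a* by -0.33 and *Pde7b* by -0.44 (limma adjusted p = 0.0709 to 0.0835).

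Of the 22 effectors of cAMP 0 passed, with 4 on the lower and 3 on the higher side at an unadjusted p under 0.05. *Ppp1r1b* differed by -0.54, *Prkar2b*, a regulatory subunit of protein kinase A, by -0.31 and *Crtc1*, a coactivator of CREB, by -0.24 (limma adjusted p = 0.0560 to 0.0949). Among the other nucleotide cyclases 6 of 7 were tested, 0 passed and 1 was lower at an unadjusted p under 0.05. That gene was *Gucy1b1*, a subunit of the nitric oxide receptor that makes cyclic GMP, at -0.23 (limma adjusted p = 0.0928), and *Gucy1a1* and *Gucy1a2* differed by -0.16 and -0.12 (limma adjusted p = 0.222 and 0.404). The gene not tested was the soluble cyclase *Adcy10*, whose level was under the minimum.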

How the data were processed

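Ventral striatal RNA of 15 mice was sequenced from stranded mRNA libraries in 150-base read pairs. The authors aligned them to mm10 (GRCm38) with STAR, counted them per gene and deposited rlog values from DESeq2, which are on a log2 scale and corrected for library size. Depth per mouse is unknown, since rlog carries no read totals, and counting intervals were not formed. Precision rests on the spread between mice.

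Testing was done with limma 3.58.1 (R 4.3.3, 2-sided moderated test, variance trend) on 15261 genes whose mean rlog was 3 or more, with Benjamini-Hochberg adjustment over all of them and a threshold of 0.05, where the authors had used DESeq2 on counts. Over both sexes the model had sex as a term, each sex was also fitted alone, and a model with 4 group means gave the interaction and the WT comparison. The fits were tested on simulated data. Single values were compared with exact permutation tests. Gene lengths and sequences came from GENCODE release 21 for mouse. Python 3.11.15 and matplotlib 3.10.9 were used for the rest.

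Named genes are the 9 members, *Fmr1*, for each member the 5 named genes with the highest Pearson r, and for each pathway role the called genes and the 3 with the smallest p. The members, lists and tests were chosen with earlier results of these data known. Replicate numbers from the labels were checked for pairing. The labels do not say that the numbers are pairs. In males the deviations of the 3 same-numbered pairs of WT and KO mice correlated with r of 0.128, 0.346 and 0.374. The numbers were treated as pairs there, beside the unpaired fit. In females r was 0.398, 0.026, -0.191 and 0.439, and they were not treated so. Same-numbered WT males and WT females had r of 0.373, 0.086, 0.113 and 0.417, and differently numbered mice were not compared. These values therefore cannot settle whether mice were paired. The replicate block over both sexes used the numbers of all mice, females included. The alternatives were other minimums, no trend, quantile normalization, median centring, sample weights, the replicate block, a projection neuron covariate, no sex term, the shared spread of all mice, other gene lengths and leaving out each mouse. A neighboring-region covariate and leaving out WT male 3 with WT female 1 were added after seeing the data.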

Additional observations from a re-analysis of the deposited data

Results flagged for a closer look

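In 27 sets of 4 mice, those of each member in the 3 groups of that size, the lowest and highest mouse were compared with the rest by Dixon's ratio, and 2 sets passed. Chance passes about 1 in 20 such sets. *Adcy5* in WT female 1 (13.86) lay far below the other WT females, at 14.35 to 14.42. *Adcy6* in WT male 3 (9.996) lay far above the other WT males, at 9.70 to 9.74. Both mice also had the lowest projection neuron scores among the WT mice, -0.26 and -0.01. What set these mice apart was not tested.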

How the results depend on the processing

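The number of members called over both sexes was 0, but 5 (*Adcy5* to *Adcy9*) with sample quality weights, 1 (*Adcy5*) with no term for sex, and 3 (*Adcy5*, *Adcy6* and *Adcy8*) without WT male 3 and WT female 1, a choice made after seeing the data. The replicate block called 1 member over both sexes (*Adcy5*) and 925 genes in all. It left 0 genes in males and 0 in females and changed the call of no other member. In males the weights called 4 members and leaving out WT male 3 called 1. Leaving out each mouse in turn gave 0 to 2 members over both sexes and 0 to 1 in males, and the other comparisons stayed at 0 members under every setting. Over all genes, the 196 calls over both sexes became 51 with no minimum, 4767 with weights, 1 with the projection neuron covariate, 2179 without the same pair of WT mice, 19 with the neighboring-region covariate, and 5 to 1444 without 1 mouse, each of the 15 moving it by over 1.5 times. The 1 call in males became 1865 with weights, 0 with either covariate, 2 with the shared spread, 322 without the pair and 0 to 322 without 1 mouse. The 2 calls in females became 1 with no minimum, 16 with weights, 9 with the shared spread or the neighboring-region covariate, 37 without the pair and 0 to 37 without 1 mouse. The 430 calls between WT females and WT males became 1436 with weights, 678 and 646 with the projection neuron and neighboring-region covariates, 126 without the pair and 136 to 477 without 1 mouse.

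Directions turned mainly with the covariates. With the projection neuron score, the difference over both sexes was -0.11 for *Adcy7*, -0.14 for *Adcy8* and 0.17 for *Adcy9*. In males it was 0.052 for *Adcy4*, 0.11 for *Adcy5* and 0.16 for *Adcy9*, and in females -0.046 for *Adcy6*, -0.21 for *Adcy7*, -0.28 for *Adcy8* and 0.18 for *Adcy9*. The interaction became -0.12 for *Adcy7* and 0.020 for *Adcy9*. With the neighboring-region score, *Adcy9* was at 0.058 over both sexes, 0.11 in males and 0.0021 in females, *Adcy2* at 0.030 in males, and the interaction at 0.069 for *Adcy6* and 0.11 for *Adcy8*. With weights, *Adcy1* was at -0.025 over both sexes, the interaction at 0.15 for *Adcy1*, -0.23 for *Adcy7* and 0.025 for *Adcy9*, and the WT sex difference of *Adcy3* at 0.0081. The replicate block put the interaction at 0.018 for *Adcy6* and for *Adcy8*. Without the pair of WT mice it was 0.022 for *Adcy6*, and the WT sex difference of *Adcy8* was -0.0082. The WT sex difference of *Adcy5* was -0.035 after quantile normalization and -0.0010 after median centring. None of these turned values passed the threshold in the main comparison, and the cause was not tested. Leaving out 1 mouse turned small differences. In males the ranges were -0.12 to 0.035 for *Adcy2*, -0.012 to 0.079 for *Adcy3*, -0.052 to 0.038 for *Adcy4* and -0.12 to 0.0098 for *Adcy9*, and in females -0.020 to 0.28 for *Adcy1* and -0.13 to 0.0031 for *Adcy4*. For the interaction they were -0.27 to 0.062 for *Adcy1*, -0.12 to 0.018 for *Adcy4*, -0.11 to 0.090 for *Adcy6*, -0.18 to 0.24 for *Adcy7*, -0.26 to 0.075 for *Adcy8* and -0.14 to 0.026 for *Adcy9*. For the WT sex difference they were -0.12 to 0.026 for *Adcy1*, -0.028 to 0.012 for *Adcy3*, -0.10 to 0.13 for *Adcy5*, -0.16 to 0.041 for *Adcy6*, -0.14 to 0.066 for *Adcy7* and -0.094 to 0.16 for *Adcy8*. Over both sexes no member changed direction when 1 mouse was left out. The correlation with the projection neuron score moved within groups to 0.466 for *Adcy1* and 0.914 for *Adcy9*, and without the 2 farthest mice to 0.957 for *Adcy5*, -0.750 for *Adcy7*, -0.860 for *Adcy8* and 0.665 for *Adcy9*. *Grm2* also lost its call with no minimum and with the neighboring-region covariate. The order of levels kept the same ranks under every length measure, and leaving out a WT mouse exchanged only *Adcy1* and *Adcy2*.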
